A study of Mus musculus with 15 samples.

Results

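The interferon response genes Isg15, Ifit1, Ifit2, Ifit3, Irf1, Irf7, Irf9, Stat2 and Bst2, were followed in mouse embryonic stem cells (ESC) with and without the chromatin protein Hmga1. They were chosen by gene symbol, because Hmga1 has been linked to assembly of the enhanceosome that switches on the interferon beta gene in other cells, and are 9 of the 21662 genes in the counts of both experiments. ESC are pluripotent cells grown from the early mouse embryo, and the labels name no treatment with interferon or a virus in any group. RNA was sequenced as strand-specific total RNA in 15 samples of 6 groups. Each group is a single cell line or clone, so that a difference between groups is also a difference between lines.

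The KO experiment held 9 samples. WT (3 samples, a, b and c) is the parental ESC line, of mixed 129Sv and C57Bl/6 background, and carries the biotin ligase BirA. Hmga1 KO (2 samples, a and b) is a clone of it in which Cas9 shifted the reading frame of Hmga1. Both add-backs (2 samples each, a and b) are KO cells with a biotin-tagged Hmga1 cDNA (Hmga1 add-back) or Hmga2 cDNA (Hmga2 add-back) under the CAG promoter, inserted at 1 genomic site by Cre. The letters a, b and c stand for batches of library preparation and sequencing. The full-deletion experiment held 6 samples, 3 of WT (here called the second WT) and 3 of a clone without the complete coding sequence of Hmga1. Its letters name samples only.

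Interferons are secreted proteins that infected cells make when sensors such as Rig-I detect foreign nucleic acid. Type I interferons bind the receptor Ifnar1/Ifnar2, whose kinases Jak1 and Tyk2 phosphorylate Stat2. Stat2 and Irf9 are subunits of the complex ISGF3, which binds the interferon-stimulated response element (ISRE) in the promoters of target genes such as Isg15 and the Ifit genes. ESC are known to make little interferon and to respond weakly to it.

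The promoters of the 9 genes were searched for both classes of interferon element, the ISRE and the gamma-activated site (GAS), through which interferons act on their target genes. The RefSeq table of windows from 250 bases before to 50 bases after the start holds 12 windows for the 9 genes. The ISRE core, GAAANNGAAA on either strand, stood in 5 of the 12 windows, those of Isg15, Ifit1, Ifit3, Bst2 and Stat2, and in 3.44% of all 32851 windows. The GAS, TTCNNNGAA, stood in 3 windows, those of Bst2, Ifit2 and Irf1, and in 8.30% of all windows. Stretches of 60 bases with the core in capitals are shown for the genes with an ISRE core and, for the GAS, for Irf1, 5′ to 3′ in the direction of the gene.
Isg15: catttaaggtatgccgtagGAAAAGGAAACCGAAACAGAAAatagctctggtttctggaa
Ifit1: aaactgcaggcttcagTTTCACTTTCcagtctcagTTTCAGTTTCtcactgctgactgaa
Ifit3: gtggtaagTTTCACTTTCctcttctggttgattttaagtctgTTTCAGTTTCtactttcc
Bst2: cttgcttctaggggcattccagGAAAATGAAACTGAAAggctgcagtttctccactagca
Stat2: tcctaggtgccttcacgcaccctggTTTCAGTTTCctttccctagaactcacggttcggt
Irf1: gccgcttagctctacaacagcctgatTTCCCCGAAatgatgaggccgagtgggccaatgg

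The first 5 lines show ISRE cores and the last a GAS. Isg15 has 3 cores that overlap, and Bst2 has 2 that overlap. A GAS runs into the first core of Bst2, and only the bases it shares with that core are in capitals here. In Ifit1, Ifit3 and Stat2 the core lies on the other strand and is shown as its reverse complement. Matched to the NCBIM37 (mm9) assembly, the stretches lie upstream of the genes at chr4:155574965-155575024 (Isg15, minus strand), chr19:34715259-34715318 (Ifit1, plus), chr19:34657855-34657914 (Ifit3, plus), chr8:74061464-74061523 (Bst2, minus), chr10:127707307-127707366 (Stat2, plus) and chr11:53583400-53583459 (Irf1, plus). The stretch of Ifit3 has 2 exact matches in the genome, and reads of Ifit3 may likewise be shared with a near-identical copy. The windows of Irf1, Irf7, Irf9 and Ifit2 hold no ISRE core within these 300 bases.

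Counts on genes summed to 13465399 to 34952136 per sample in the KO experiment, with batch a deeper than batch b in each line, and to 14832310 to 21708492 in the full-deletion experiment. Second WT b stood apart, with a normalization factor of 0.752 against 0.986 to 1.12 in the other 5 samples of its experiment. Hmga1 RNA was at 220 to 464 CPM (counts scaled to a common normalized library total) in WT, at 96.0 to 217 in KO and at 10.9 to 12.3 in the full deletion, against 310 to 356 in the second WT. In the samples labelled Hmga1 add-back it was at 123 to 184 CPM, 0.04 above KO on the log2 scale (adjusted p = 0.9999), so that the count does not show the inserted Hmga1. By Western blot, the study reports no Hmga1 protein in KO and a level comparable to WT in the Hmga1 add-back. It also reports that the Hmga1 transcript found in KO lacks exon 3. Hmga2 was at 222 to 249 CPM in the Hmga2 add-back and at 12.8 to 23.8 in WT. The 9 ESC markers, Pou5f1 and Sox2 among them, were present in every sample, with summed levels of 4143 to 7484 CPM. The 10 markers of feeder fibroblasts summed to 3.49 to 14.7 CPM, most of it Thy1 (1.78 to 11.7 CPM), and Dcn, Lum and Postn had a count of 0 in at least 13 of the 15 samples. The 5 markers of macrophages and blood cells summed to 5.85 to 20.8 CPM, nearly all of it Cd68.

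The 9 genes fell into those that ESC transcribe and those with next to no reads. Isg15, Ifit1, Ifit3 and Irf7 had 96 counts over all 15 samples, 0.328% of the 29272 counts of the 9 genes. The other 5, Ifit2, Irf1, Irf9, Stat2 and Bst2, averaged 10 counts or more per sample in both experiments and were tested. In RNA from whole cultures, fewer cells that transcribe a gene and less RNA per cell cannot be told apart.

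Isg15 (chromosome 4, 155573533 to 155574927, NCBIM37) encodes a ubiquitin-like protein that is attached to other proteins, and is one of the strongest targets of interferon. WT had 0, 1 and 1 counts, and KO had 0 and 0. In turn, 0 and 0 were counted with Hmga1 added back and 1 and 0 with Hmga2, and the second WT had 0, 0 and 0 and the full deletion 0, 0 and 1. The 4 counts in all correspond to 0.0120 CPM, with an exact 95% Poisson interval of 0.00327 to 0.0307. A floor of 3 counts over the group is 0.0615 CPM for KO and 0.0516 CPM for the second WT, both at 0. Intervals and floors cover counting error only. Isg15 was thus at the limit of detection in every group, and no difference was detectable at this depth.

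Ifit1 (chromosome 19, 34715361 to 34724499) encodes a protein that binds viral RNA and blocks its translation. Its relative Ifit3 lies on the same chromosome (34658021 to 34663221). Ifit1 was the most frequent of the 4 sparse genes, with 4, 6 and 5 counts in WT, 7 and 3 in KO, 4 and 7 in the Hmga1 add-back and 2 and 2 in the Hmga2 add-back. The second WT had 1, 1 and 3 counts and the full deletion 1, 5 and 1. In CPM this was 0.218 in WT (interval 0.122 to 0.360) and 0.205 in KO (0.0982 to 0.377), and 0.0859 in the second WT (0.0279 to 0.201) against 0.113 in the full deletion (0.0456 to 0.234). The intervals overlapped in both experiments.

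Ifit3 had 6, 2 and 7 counts in WT, 1 and 0 in KO, 2 and 2 in the Hmga1 add-back and 1 and 0 in the Hmga2 add-back. The second WT had 0, 3 and 0 counts and the full deletion 0, 0 and 0. The WT level was 0.218 CPM (0.122 to 0.360), above the KO level of 0.0205 CPM (0.000519 to 0.114), and the 2 intervals did not overlap. The interval of the Hmga2 add-back, at 0.0208 CPM (0.000528 to 0.116), also lay below that of WT. That of the Hmga1 add-back, at 0.0830 CPM (0.0226 to 0.213), overlapped it. These are differences of a few reads. The few reads of the interferon genes, given below, also fell mostly in this WT. In a fit without a filter on low counts the adjusted p of Ifit3 against WT was 0.5997 for KO and 0.462 for the Hmga2 add-back. For the full deletion against the second WT it was 0.379, and Ifit3 does not pass in any of them. Irf7 (chromosome 7, 148448605 to 148452380), the factor that amplifies interferon production, had 2, 0 and 2 counts in WT, 1 and 0 in KO, 3 and 1 in the Hmga1 add-back and 5 and 1 in the Hmga2 add-back. In the full-deletion experiment a single count fell in the full deletion and none in the second WT. Over all samples Irf7 was at 0.0480 CPM (0.0274 to 0.0779).

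**Figure D1:**
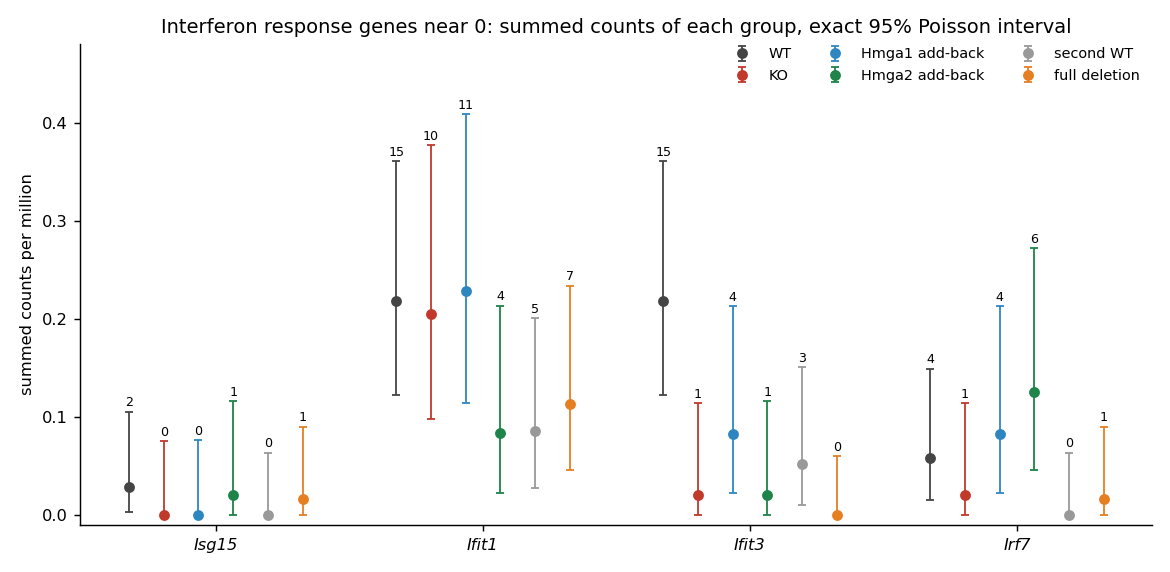
Summed counts as CPM (vertical axis) of Isg15, Ifit1, Ifit3 and Irf7 in the 6 groups (colours), with the exact 95% Poisson interval as a bar and the summed count above it. The groups hold 2 or 3 samples each, and the highest interval ends at 0.408 CPM, for the 11 counts of Ifit1 in the Hmga1 add-back. Ifit3 in WT, with 15 counts, lies above Ifit3 in KO and in the Hmga2 add-back, with 1 count each.

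Per length of exon, the 5 tested genes stood in a similar order in most groups, and all above the 4 sparse genes. Levels are given as RPKM, the CPM divided by the exon length in kilobases. In WT, Bst2 was highest at 18.0 ± 1.56 RPKM (SD, n = 3), followed by Stat2 (4.65 ± 0.191), Irf9 (4.47 ± 0.310), Irf1 (4.30 ± 0.726) and Ifit2 (1.91 ± 0.543), and Stat2, Irf9 and Irf1 did not differ beyond their ranges. Ifit3, the highest of the sparse genes there, was at 0.106 ± 0.0351 RPKM. In the second WT, Stat2 (7.61 ± 2.08 RPKM) and Bst2 (5.42 ± 1.75) overlapped and Bst2 was no longer highest. Both WT groups were sequenced in separate experiments, so the lower Bst2 and higher Stat2 of the second WT cannot be told apart from the experiment and were not tested. The ISRE core stood both in promoters of sparse genes (Isg15, Ifit1, Ifit3) and in those of the 2 highest genes (Bst2, Stat2).

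In the KO experiment, KO and both add-backs were each set against WT, to see whether the genes changed without Hmga1 and whether either protein reversed it. A gene was called at a Benjamini-Hochberg adjusted p under 0.01 in edgeR's quasi-likelihood test and a fold of at least 2. None of the 5 tested genes was called in any of the 3 comparisons, where 0.0216%, 0.0144% and 0.0647% of all 13912 genes were. At an unadjusted p under 0.05 there was 1 of the 5 (Bst2) for KO, 1 (Stat2) in cells given Hmga1 and 2 (Stat2 and Irf1) in those given Hmga2, against 12.6%, 13.3% and 16.9% of all genes. The median log2 fold change of the 5 genes was 0.35, 0.38 and 0.24, and that of all genes was within 0.01 of 0. The 3 comparisons share their WT samples.

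Bst2 (chromosome 8, 74058163 to 74061336), also called tetherin, is a membrane protein that holds budding virus particles at the cell surface. It had 14.9, 14.0 and 12.5 CPM in WT a, b and c, 27.5 and 16.5 in KO a and b, 25.2 and 13.9 in the Hmga1 add-back and 24.7 and 11.2 in the Hmga2 add-back. Both KO samples lay above all WT samples, but KO was at 185% of WT in the first batch (a) and at 118% in the second (b). The add-backs were at 170% and 166% of WT a, and at 99.3% and 80.2% of WT b. The high values were thus those of batch a in all 3 lines derived from KO, and WT a was not raised. The log2 fold change of KO against WT was 0.56 (SE 0.24, adjusted p = 0.384). It ranged from 0.15 to 0.96 with 1 sample left out. Without WT b, only WT a informs this comparison, since WT c is alone in its batch.

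Stat2 (chromosome 10, 127707629 to 127729905), the subunit of ISGF3 that activates transcription, had 19.5, 21.1 and 20.9 CPM in WT. KO had 26.8 and 27.8, the Hmga1 add-back 42.5 and 21.4 and the Hmga2 add-back 41.6 and 26.2. All 6 samples derived from KO lay above the 3 WT samples. Relative to WT a, the add-backs were at 218% and 213% and KO at 137%. Relative to WT b, they were at 101% and 124% and KO at 132%. The log2 fold changes against WT were 0.43 (SE 0.26, adjusted p = 0.542) in KO, 0.61 (SE 0.26, adjusted p = 0.373) in the Hmga1 add-back and 0.71 (SE 0.26, adjusted p = 0.243) in the Hmga2 add-back. None passed the adjustment.

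Irf9 (chromosome 14, 56222408 to 56228867), the subunit of ISGF3 that contacts the ISRE, was the most even of the 5 genes. WT had 20.1, 22.4 and 19.8 CPM, KO 20.0 and 19.3, the Hmga1 add-back 19.1 and 17.7 and the Hmga2 add-back 20.3 and 21.0. The log2 fold change of KO against WT was -0.11, with a 95% interval of -0.43 to 0.22, which leaves out a 2-fold change in either direction. Its exons overlap those of Rnf31 on the same strand in the annotation, so that part of its count may come from that gene. Irf1 (chromosome 11, 53583516 to 53591876), a transcription factor that interferon gamma induces through its GAS, had 12.6, 17.2 and 13.6 CPM in WT, 17.7 and 20.1 in KO, 21.2 and 16.9 in the Hmga1 add-back and 20.3 and 20.3 in the Hmga2 add-back. Both KO samples and both of the Hmga2 add-back lay above WT, by 0.35 (SE 0.20, adjusted p = 0.497) and 0.46 (SE 0.20, adjusted p = 0.286) on the log2 scale.

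Ifit2 (chromosome 19, 34625184 to 34650909), a relative of Ifit1 and Ifit3, was the only Ifit gene with enough counts to test. WT had 5.81, 6.90 and 9.95 CPM and KO 3.67 and 5.77, so that both KO samples lay below WT, at 63.2% of WT a and 83.7% of WT b. The Hmga1 add-back had 5.14 and 7.49 CPM and the Hmga2 add-back 6.19 and 8.16, overlapping WT. The log2 fold change was -0.47 (SE 0.21, adjusted p = 0.410) in KO against WT. The Hmga2 add-back was above KO in both batches, at 168% and 141%, with a log2 difference of 0.63 (SE 0.21, adjusted p = 0.877). The Hmga1 add-back was at 140% and 130% of KO (log2 difference 0.43, SE 0.21, adjusted p = 0.9999).

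**Figure D2:**
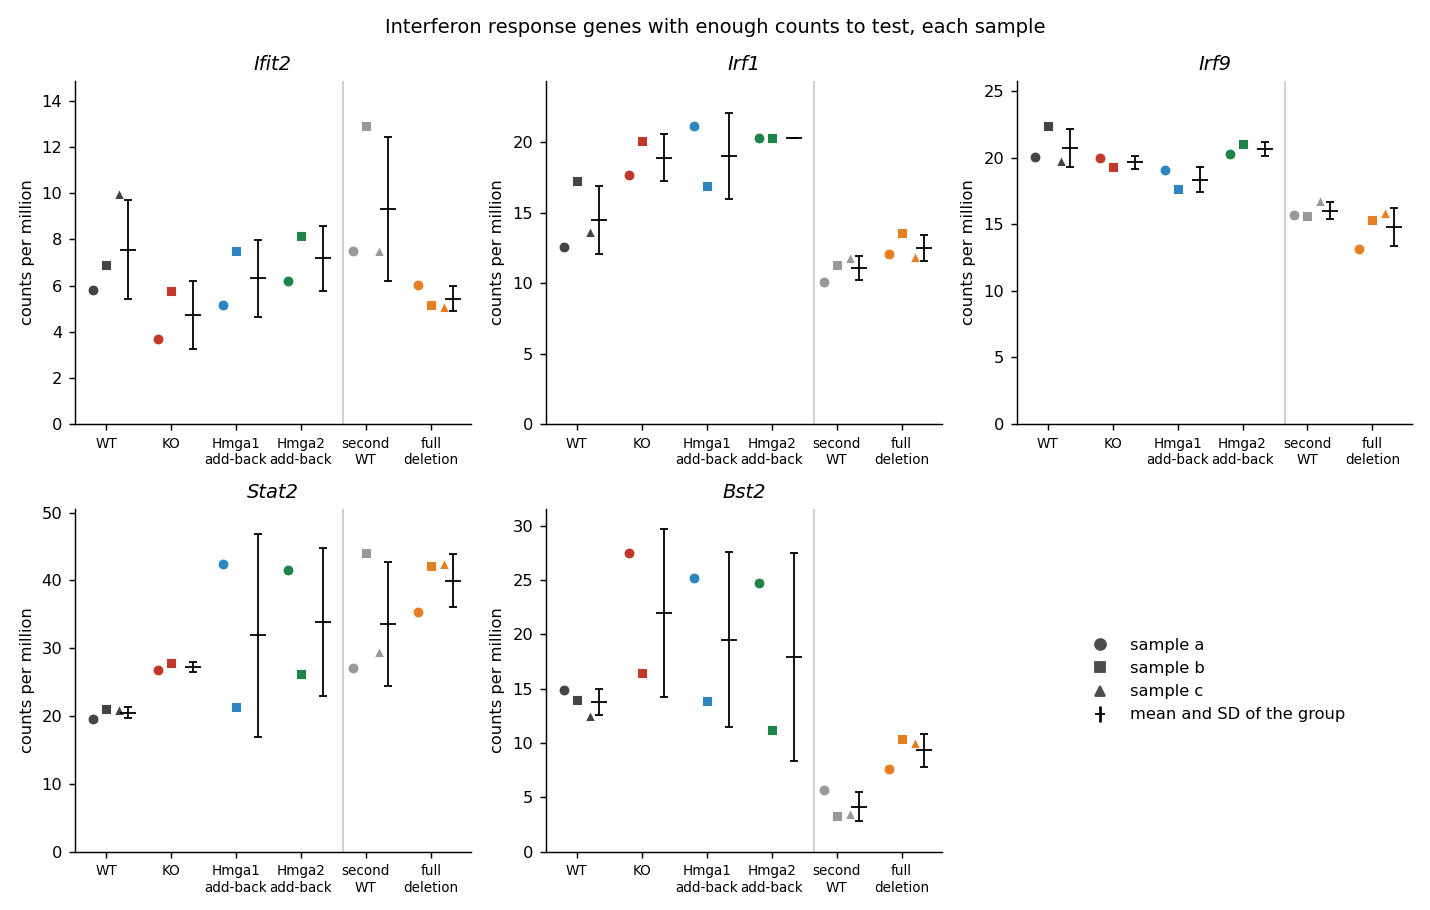
CPM (vertical axes, from 0) of the 5 tested genes in each of the 15 samples, by group; marker shapes are the sample letters, and the bar beside each group is its mean and SD. Batch a (circles) is high for Bst2 and Stat2 in the add-backs. All 3 samples of the full deletion lie above the second WT for Bst2 and Irf1 and below it for Ifit2.

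Against KO, neither add-back had a called gene among the 5, where 0.00% of all genes were called with Hmga1 and 0.00719% with Hmga2. At an unadjusted p under 0.05 there was none of the 5 with Hmga1 and 1, Ifit2, with Hmga2, against 2.80% and 5.09% of all genes. Bst2 was at 91.8% and 84.1% of KO in the Hmga1 add-back and at 90.0% and 67.9% in the Hmga2 add-back. Its log2 differences were -0.18 (95% interval -0.71 to 0.35) and -0.32 (-0.85 to 0.21). These intervals span both no change and the whole difference between KO and WT.

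In the full-deletion experiment the same genes were compared between 3 samples of each line. None of the 5 was called at the threshold used above, and 0.0687% of 13098 genes were. At an adjusted p under 0.05 with a fold of at least 2, Bst2 was called, 1 of 5, against 2.77% of all genes. At an unadjusted p under 0.05 there were 2, Bst2 higher and Ifit2 lower, against 37.0% of all genes, so that small differences were common in this comparison. The median log2 fold change of the 5 genes was 0.18 and that of all genes 0.04.

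Bst2 had 5.69, 3.25 and 3.51 CPM in the second WT (counts of 120, 53 and 73) and 7.62, 10.4 and 9.99 CPM in the full deletion (126, 241 and 220). Every sample of the full deletion lay above every sample of the second WT. Means were 4.15 ± 1.34 and 9.34 ± 1.5 CPM (SD, n = 3). The log2 fold change was 1.16 (SE 0.25, 95% interval 0.59 to 1.74, adjusted p = 0.0386), or 2.24-fold. Without second WT b it was 1.03 with an adjusted p of 0.000211, and it was called at the stricter threshold, in a fit where 42.5% of all genes had an adjusted p under 0.05. With any 1 sample of the full deletion left out it was 1.07 to 1.28, with adjusted p between 0.143 and 0.173, and without second WT c it was 1.05 (adjusted p = 0.0780), so that the call was lost when any 1 of these 4 samples was left out. In those fits 3 or 4 of all genes had an adjusted p under 0.05, in place of 1080 with all samples. The feeder fibroblast markers summed to 3.49 to 6.07 CPM in the second WT and to 6.04 to 8.04 in the full deletion. Of the 10 markers, 6 had a count of 0 throughout the second WT and 5 throughout the full deletion. The part of feeder cells in the Bst2 difference was not tested. The mean of the full deletion was still below the 13.8 ± 1.20 CPM of WT in the KO experiment (n = 3).

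Ifit2 had 7.49, 12.9 and 7.51 CPM in the second WT and 6.04, 5.18 and 5.09 in the full deletion. All samples of the full deletion were below the second WT, with a log2 fold change of -0.77 (SE 0.24, adjusted p = 0.0745). The value of second WT b decides part of it, since without that sample the log2 fold change was -0.47, with an adjusted p of 0.0156. Stat2 had 27.1, 44.0 and 29.5 CPM in the second WT and 35.4, 42.1 and 42.5 in the full deletion. The groups overlapped through second WT b, and the log2 fold change was 0.26 (SE 0.19, adjusted p = 0.346). Without second WT b it was 0.50 with an adjusted p of 0.000132, below a fold of 2. In that fit, for Ifit2 and Stat2 alike, 42.5% of all genes had an adjusted p under 0.05.

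Irf1 and Irf9 were close to the second WT. Irf1 had 10.1, 11.3 and 11.7 CPM there and 12.0, 13.6 and 11.9 in the full deletion, a log2 fold change of 0.18 (95% interval -0.12 to 0.47). Irf9 had 15.7, 15.6 and 16.8 CPM and then 13.2, 15.3 and 15.9, a log2 fold change of -0.11 (-0.39 to 0.17). Neither interval includes a 2-fold change. The sparse genes stayed sparse, with no more than 5 counts of any of them in a sample of the full deletion.

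**Figure D3:**
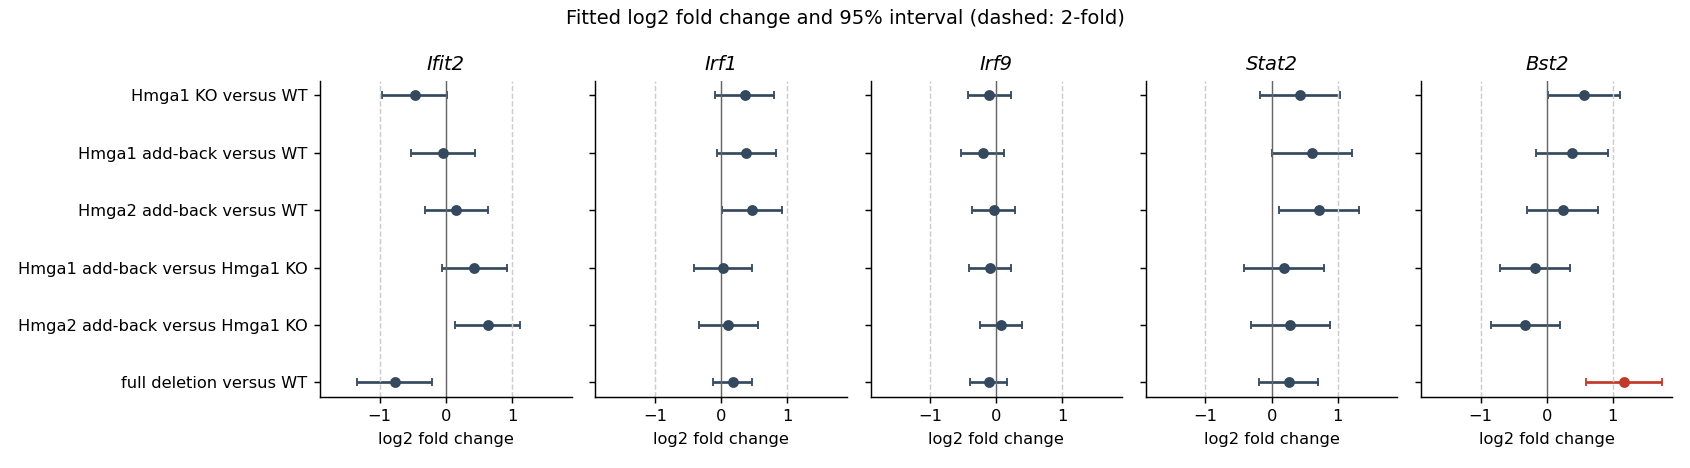
Fitted log2 fold changes (horizontal axes) of the 5 tested genes in 6 comparisons, with 95% intervals; dashed lines mark 2-fold, and red marks an adjusted p under 0.05. Only Bst2 in the full deletion, at 1.16, is red, and the intervals of Irf9 lie within the dashed lines throughout.

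The effect of the full deletion was set against that of the KO in a joint fit of all 15 samples. None of the 5 genes was called, where 0.0843% of 13050 genes were, and none had an unadjusted p under 0.05, where 18.7% of all genes did. The difference was 0.60 on the log2 scale for Bst2 (SE 0.36, adjusted p = 0.360) and -0.31 for Ifit2 (SE 0.36, adjusted p = 0.619). Both lines lacking Hmga1 had Bst2 and Irf1 above and Ifit2 below their own WT in every sample, in part by narrow margins. For Ifit2 the highest KO sample was at 5.77 CPM and the lowest WT sample at 5.81. For Irf1 the lowest KO sample was at 17.7 CPM and the highest WT sample at 17.2. In the full deletion the lowest Irf1 value was 11.85 CPM, and the highest in the second WT was 11.75. Log2 fold changes in KO and full deletion were 0.56 and 1.16 (Bst2), 0.35 and 0.18 (Irf1) and -0.47 and -0.77 (Ifit2). The share of all genes that separate in this way was not computed.

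The rest of the pathway was described from a list of 125 further genes. The 21 interferon genes themselves had 40 counts in all 15 samples. Ifnz, interferon zeta, led with 7 counts, followed by Ifna4 and Ifna5 with 5 each, Ifna12, Ifna13 and Ifna16 with 3 each, Ifna6, Ifna9, Ifna11 and Ifnk with 2 each, and Ifnb1, the interferon beta gene, Ifna14, Ifna15, Ifne, Ifnl2 and Ifnl3 with 1 each. Ifna1, Ifna2, Ifna7, Ifnab and Ifng had 0. Most of the 40 counts fell in WT of the KO experiment, with 6 of Ifnz and 5 each of Ifna4 and Ifna5. These 3 genes had 0 in the second WT, and the reason was not tested. The alpha interferon genes are near-identical copies and share reads. The 7 factors listed with the enhanceosome all had counts, with Ep300, a histone acetyltransferase, at 16.3 RPKM on average over the 15 samples.

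The 6 receptor genes and the 5 kinase and STAT genes all had counts, though Il10rb, a receptor chain, was at 0 in at least 1 sample. Ifnar1, the receptor chain with the most counts, was at 5.65 to 7.24 RPKM in the 15 samples, and Stat3, which also carries the LIF signal that ESC are grown with, at 18.1 to 31.0 RPKM. Tbk1, the kinase that activates Irf3 below the sensors, was at 18.8 RPKM on average. Trim24, among the inhibitors, was at 32.5 RPKM, Trim25, listed with the ISG15 ligases, at 24.8 and Pml, a nuclear body protein and the other target with the most counts, at 21.6. Of the 60 other targets, 20 had a mean count under 10 in both experiments, as did 2 of the 4 genes of ISG15 conjugation.

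**Figure D4:**
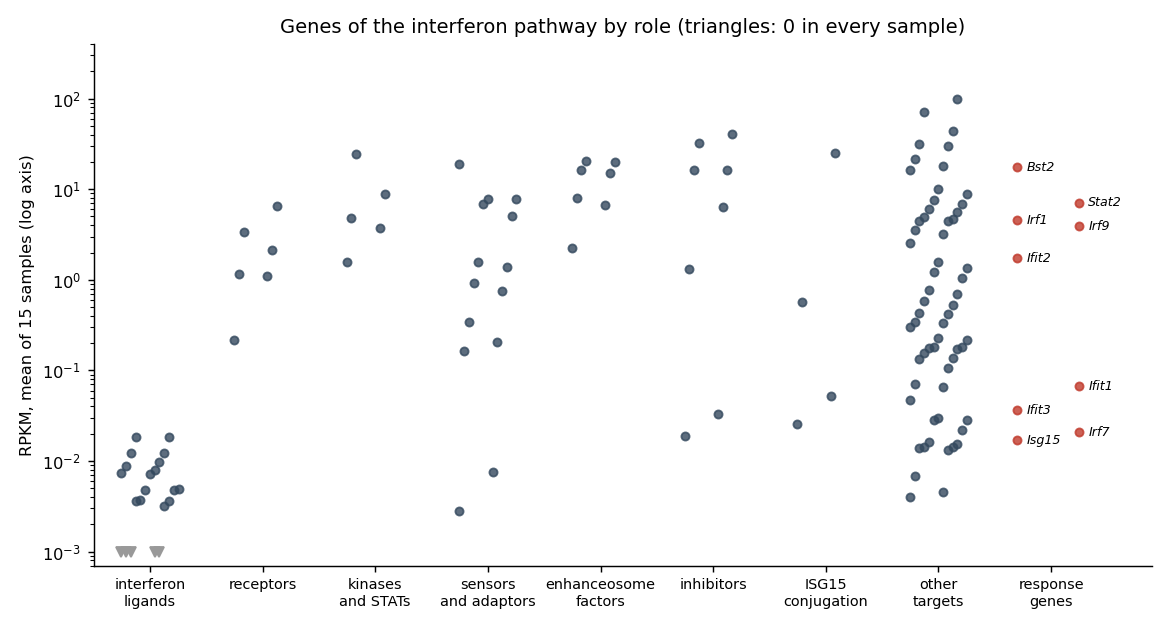
Mean RPKM over 15 samples (vertical axis, logarithmic) of the 125 listed pathway genes by role and of the 9 response genes (red); each point is 1 gene, and triangles at the bottom are the 5 interferon genes with a count of 0 in every sample. Ligands lie at the bottom, receptors, kinases and enhanceosome factors lie well above them, and the response genes split into Bst2, Stat2, Irf1, Irf9 and Ifit2 above and Ifit1, Ifit3, Irf7 and Isg15 below.

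In the KO experiment 78 of the 125 genes were tested, and none had an adjusted p under 0.05 in KO or either add-back against WT, where 0.0647%, 0.0431% and 0.165% of all genes did. At an unadjusted p under 0.05, 8 were higher and 2 lower in KO (12.8% of 78), 10 and 4 in the Hmga1 add-back (17.9%) and 9 and 7 in the Hmga2 add-back (20.5%), beside the 12.6%, 13.3% and 16.9% of all genes given above. In the full deletion, 6 of 71 genes had an adjusted p under 0.05, 3 higher and 3 lower, close to the 8.25% of all genes that did. H2-K1 and H2-D1, the heavy chains of MHC class I, which presents peptides to T cells, rose. H2-K1 had 5.60, 3.43 and 6.02 CPM in the second WT and 11.6, 10.5 and 9.44 in the full deletion (log2 fold change 1.06, SE 0.22, adjusted p = 0.0371). H2-D1 had 4.55, 3.92 and 4.24 CPM and then 8.28, 6.73 and 7.22 (0.80, SE 0.15, adjusted p = 0.0337).

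Ifitm1, a membrane protein that hinders virus entry and is also made by ESC, rose from 36.1, 26.8 and 34.4 CPM to 51.1, 52.2 and 51.0 (0.66, SE 0.13, adjusted p = 0.0337). Of 10 sensor and adaptor genes tested, 5 were above and 5 below 0, with a median log2 fold change of 0.009. At an adjusted p under 0.05, 2 fell and none rose, where 8.25% of all genes passed. Ddx58, which encodes Rig-I, had 49.8, 55.9 and 53.6 CPM in the second WT and 30.2, 32.7 and 28.2 in the full deletion (-0.80, SE 0.10, adjusted p = 0.0188). Mb21d1, which encodes the DNA sensor cGas, had 5.74, 7.23 and 7.27 CPM and then 4.05, 3.41 and 3.81 (-0.84, SE 0.17, adjusted p = 0.0346). Xaf1, a target linked to cell death, had 6.59, 7.90 and 5.59 CPM and then 4.11, 3.80 and 3.59 (-0.80, SE 0.18, adjusted p = 0.0418). In KO against WT the log2 fold changes of these 6 genes were 0.51 (H2-K1), -0.15 (H2-D1), 0.52 (Ifitm1), -0.32 (Ddx58), -0.18 (Mb21d1) and 0.46 (Xaf1), with adjusted p between 0.335 and 0.891, so that H2-D1 and Xaf1 had the opposite sign to the full deletion. Among the rest, only H2-K1 differed from WT in the same direction in both batches. Ddx58 had 62.3 and 46.7 CPM in WT a and b, and 35.8 and 62.4 in KO a and b. In the same order, Mb21d1 had 7.17 and 5.51 and then 5.81 and 5.62, and Ifitm1 62.1 and 53.0 and then 135 and 52.8. Xaf1 was at 4.99 ± 1.11 CPM in WT (SD, n = 3), and at 6.73 ± 1.11 in KO (SD, n = 2). With Hmga1 added back it was at 8.83 ± 0.299 CPM and with Hmga2 at 15.3 ± 0.768 (SD, n = 2 each). In the comparisons with WT above, Xaf1 had no adjusted p under 0.05 in either add-back. Without second WT b, 31 of 73 pathway genes had an adjusted p under 0.05, 14 higher and 17 lower, which is 42.5% of them and also 42.5% of all genes in that fit. None did without second WT c or without any 1 sample of the full deletion, where 3 or 4 of all genes did.

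The genes whose profile over the 15 samples was most like each of the 3 varying genes were sought among 13050 genes, by the root mean square difference of log2 CPM after centring each experiment. For Bst2 these were Cracr2b (0.19), Acy3 (0.20) and Cln6 (0.21), for Stat2 Syp (0.12), Ube2h (0.13) and Pygb (0.14), and for Ifit2 Fundc2 (0.13), C1galt1c1 (0.14) and Stag2 (0.16). The median difference from all genes was 0.59, 0.46 and 0.51. The profiles share library, depth and batch, and none of the 9 named genes is on the pathway list. Irf1 and Irf9 varied by less than 2-fold within both experiments, and their nearest genes are not named for that reason.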

How the data were processed

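The deposited values are raw read counts per gene, for 9 and 6 samples in separate tables. The authors trimmed the first 3 bases of 50-base reads, used QuasR and bowtie for alignment to mm9, placed a read with several alignments at 1 of them at random, and counted reads on the strand of UCSC known gene exons. The submitters' notes name bcl2fastq 2.17 and Bowtie. Genes averaging 10 counts or more went into the quasi-likelihood test (edgeR 4.0.16, R 4.3.3; TMM scaling; Benjamini-Hochberg over all genes tested; fit checked on simulated data). In the KO experiment all 9 samples were fitted with batch as a term, since the study's methods tie each letter to a preparation day and flow cell. There, deviations of same-letter samples from their group means had a correlation across genes of 0.154 to 0.758. WT c is alone in its batch and adds nothing to these comparisons. The full-deletion experiment was fitted without such a term. P-values measure the spread between cultures of 1 line per group. CPM and RPKM were computed here from the counts, the TMM-normalized library sizes and the exon lengths in the tables. The alternatives used DESeq2 1.42.0 and limma 3.58.1 (prior count of 2).

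The 9 genes and the lists were chosen with earlier results of these data known, and the settings of the alternatives for the joint fit and the pathway genes after the data were seen. All 9 genes were described. Pathway genes were named when their adjusted p was under 0.05 with a fold of at least 2, when they had the most counts in their role, or when they were interferons with any count; the other 5 genes with an adjusted p under 0.05 were named after their values were seen. Promoter sequences are from RefSeq (GRCm38.p6) and were matched exactly to NCBIM37, whose GENCODE annotation gave the gene positions. The repeat counts and the ChIP data were not analysed here. Plots were made in python 3.11.15 (matplotlib 3.10.9).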

Additional observations from a re-analysis of the deposited data

How the results depend on the processing

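Of the 7 counts of called genes among the 5 tested, 6 stayed at 0 under every alternative. For the full deletion the count was 1 (Bst2) with the DESeq2 Wald test (log2 fold change 1.13, adjusted p = 0.000769), without second WT replicate b, and at an adjusted p under 0.05. Leaving out single samples gave counts of 0 to 1.

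In the KO experiment the batch block was part of the fit. Without it, none of the 5 genes was called in any comparison and Ifit2 in the Hmga2 add-back against WT turned from 0.16 to -0.082. In the full-deletion experiment same-letter samples had correlations of 0.06, 0.07 and -0.05, so that the letters do not pair the samples. With the letter as a replicate block Bst2 was at 1.19 (adjusted p = 0.0591) and 1 of 71 pathway genes, in place of 6, had an adjusted p under 0.05, as 3.02% of all genes did in place of 8.25%. Unscaled library sums shifted the median over all genes in the full deletion, on the log2 scale, from 0.04 to 0.32, turned Irf9 to 0.17 there and to 0.018 in the Hmga2 add-back against WT, turned the difference of effects of Ifit2 to 0.015, and left 1 pathway gene at an adjusted p under 0.05, with 5.07% of all genes.

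With single samples left out, several small differences changed sign. Against WT, Ifit2 ranged from -0.17 to 0.11 and Bst2 from -0.036 to 0.78 in the Hmga1 add-back, and Irf9 from -0.12 to 0.055 and Bst2 from -0.17 to 0.64 in the Hmga2 add-back. Against KO, Irf1 ranged from -0.28 to 0.27 and Stat2 from -0.28 to 0.55 in the Hmga1 add-back, and Stat2 from -0.011 to 0.57 in the Hmga2 add-back. Without WT b, the comparisons with WT rest on WT a as the only informative WT sample, since WT c is alone in its batch. Counts of called genes are therefore not given for that fit. Without second WT b, 362 genes were called in the full deletion in place of 9. The cause was not tested. H2-K1 passed the stricter threshold with the DESeq2 Wald test (1.03, adjusted p = 0.000551). For the Hmga2 add-back against WT, 2 of 78 pathway genes had an adjusted p under 0.05 with that test (2.56%), beside 2.36% of all genes. With only the groups compared it was 2 of 77 (2.60%), beside 2.52%, and without a filter 1 of 120 (0.833%), beside 0.469%. For the Hmga1 add-back against WT it was 1 of 78 with the DESeq2 Wald test (1.28%), beside 1.44%.

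Depth limits the sparse genes: a floor of 3 counts over a group corresponds to between 0.0437 and 0.0625 CPM, so that lower levels of Isg15 or Irf7 are not seen here.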
